A study of Bos taurus with 34 samples.

Results

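The members described here are bta-miR-10a and bta-miR-10b, 2 of the 800 bovine miRNA names counted in each library, followed across disease status and sampling day. They were chosen by name, and the choice was made with their levels in healthy and diseased cows already known, so their differences between statuses are given as a description without a p-value. Small RNA from the cell-free part of blood was sequenced in 17 dairy cows, 6 healthy and 11 with subclinical endometritis (SCE), a uterine inflammation that shows no clinical signs and was here assigned from cytology and biopsy of the endometrium. Each cow was sampled at an early and a late time after calving, called day 25 and day 45 in the sample labels and 21 and 44 days postpartum in the design text, and the labels call the fluid serum where the design text calls it plasma. The groups were healthy cows at day 25 (n = 5), healthy cows at day 45 (n = 6), and SCE cows at day 25 and at day 45 (n = 11 each), with no treatment, age or breed given in the labels. For healthy cow 3 both deposited files held the same counts and were taken as its day-45 library, so 33 of 34 libraries were used and 16 cows had both days.

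miR-10a and miR-10b are a pair of closely related miRNAs that lie inside HOX gene clusters, the sets of transcription factor genes that give cells their position along the body axis. They are expressed with the HOX genes around them in many tissues of the trunk, among them uterus, vessel wall and stroma, and both are known to target mRNAs of HOX genes. In blood, a miRNA outside cells can come from blood cells, vessel wall or distant tissues, and the cell-free level alone does not name its source. In the RefSeq annotation of the ARS-UCD2.0 assembly, the MIR10A locus lay within the span of HOXB3, with HOXB4 next nearest, and the MIR10B locus lay within the span of HOXD4, with HOXD3 next nearest. That assembly is not the build named in the submitters' notes (UMD 3.1), so it is used here for names and neighbours only.

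Total miRNA counts ranged from 678389 to 28872153 per library, with SCE cow 10 lowest at either day (1343401 and 678389). The red blood cell miRNA miR-486 took 3.95 to 81.1% of counts. Its mean share was 50.3% at day 25 and 46.2% at day 45 among healthy cows, against 25.4% and 31.3% among SCE cows. None of the 7 red blood cell markers was at 0 in every library used. Their summed share ran from 24.9 to 81.7% and from 15.2 to 73.1% in healthy cows at days 25 and 45. In SCE cows it ran from 4.22 to 79.4% and from 4.18 to 53.7% at the same days. The ranges of the statuses overlapped at both days, and edgeR called none of the red blood cell markers between statuses. Of the 6 markers tested, 5 were lower and 1 higher in SCE cows at day 25 (median log2 fold change -0.45). The counts were the same at day 45 (median -0.53), and over both days 6 of 7 were lower (median -0.55). The members had the same direction, and the part of red blood cell RNA in their levels was not tested. The fluid has no defining marker of its own.

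Both members were abundant in every library. The count of miR-10a ran from 7538 to 553556 and that of miR-10b from 19469 to 1100040, so counting error is small beside the spread between cows. miR-10a took 0.119 to 4.15% of all miRNA counts, with a median of 1.04%, and ranked between 4 and 29 by count. miR-10b took 0.274 to 9.38%, with a median of 1.38%, and ranked between 3 and 37. The widest 95% Wilson interval of these shares extended 0.0557 percentage points to either side, which covers counting error only, since the reads carry no molecular identifiers. The members thus stood among the most counted miRNAs in all 33 libraries, with shares that differed between libraries by more than an order of magnitude.

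**Figure D1:**
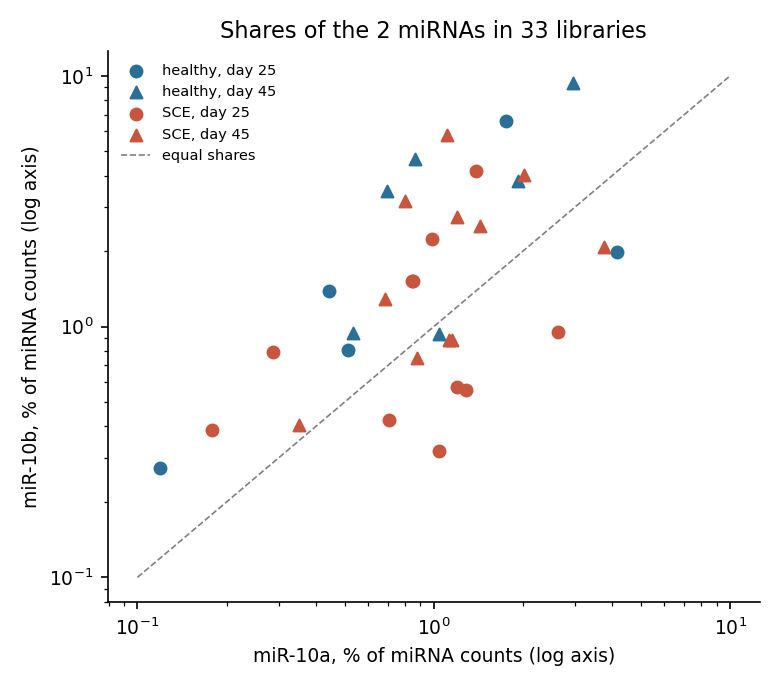
Share of miRNA counts taken by miR-10a (horizontal log axis, percent) and by miR-10b (vertical log axis, percent) in the 33 libraries, with colour for status, symbol for day and a dashed line for equal shares. 22 libraries lie above the line, where miR-10b was counted more often than miR-10a, and 11 lie below it.

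miR-10b was the more counted member in 22 of 33 libraries. This held in 4 of 5 healthy libraries at day 25, 5 of 6 at day 45, 6 of 11 SCE libraries at day 25 and 7 of 11 at day 45. The ratio of miR-10b to miR-10a within a library needs no normalization between libraries. How reads that match both members were assigned is not known here, so the split between them is uncertain to that extent. The ratio was 2.30, 1.56, 0.477, 3.12 and 3.77 in healthy cows 1, 2, 4, 5 and 6 at day 25, and from 0.895 to 5.40 with a median of 2.58 in healthy cows at day 45. In SCE cows it was from 0.307 to 3.02 with a median of 1.78 at day 25 and from 0.550 to 5.24 with a median of 1.76 at day 45. The ranges of healthy and SCE cows overlapped at both days, with 3 of 11 SCE libraries below every healthy one at day 25 and 4 of 11 at day 45.

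At day 25 the SCE libraries fell into a higher and a lower set of ratios with no value between 0.597 and 1.78. Cows 7, 8, 9, 10, 11 and 13 had ratios of 2.18, 2.75, 3.02, 1.81, 1.78 and 2.26, and miR-486 took 79.0, 49.4, 27.8, 43.4, 10.8 and 41.8% of their counts. Cows 12, 14, 15, 16 and 17 had ratios of 0.307, 0.364, 0.434, 0.479 and 0.597, and miR-486 took 6.26, 4.001, 8.72, 4.06 and 4.04% of their counts. The 5 SCE libraries of that day with more miR-10a than miR-10b were thus also the 5 with the least miR-486. At day 45 the library with the least miR-486, that of SCE cow 9 at 3.95%, had a ratio of 2.28. Among healthy cows the library with the least miR-486 had the lowest ratio at either day. This was cow 4 at day 25 (24.8%, ratio 0.477) and cow 6 at day 45 (14.7%, ratio 0.895). The part of red blood cell RNA in the ratio was not tested.

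**Figure D2:**
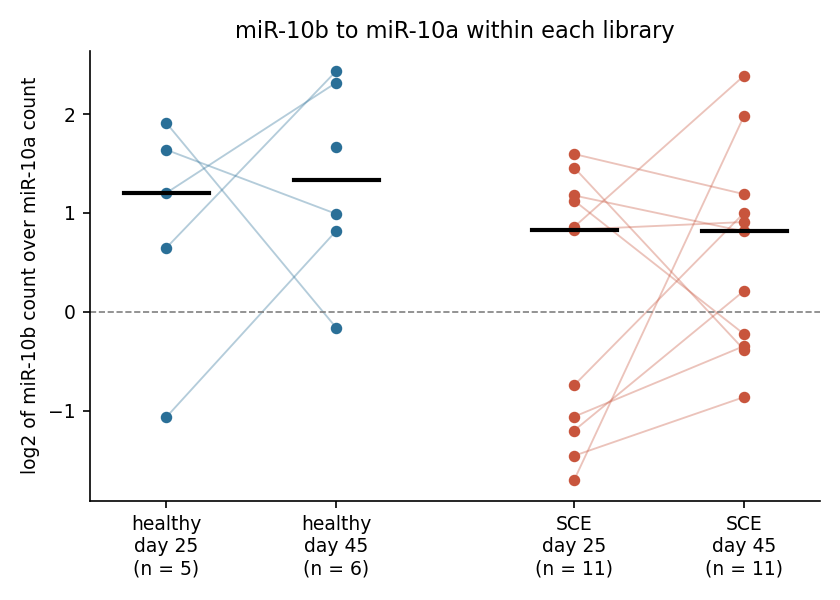
log2 of the miR-10b count over the miR-10a count (vertical axis) in each library by status and day, with lines joining the 2 libraries of a cow, black bars for medians and a dashed line at equal counts. The SCE libraries at day 25 leave a gap around the dashed line, and the lines of single cows cross in both directions.

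The levels below are CPM (counts scaled to a common library size) after TMM normalization, a scaling between libraries that assumes most miRNAs do not differ. miR-10b, the HOXD member, was at 6933, 11114, 22674, 13493 and 137656 CPM in healthy cows 1, 2, 4, 5 and 6 at day 25, a mean of 38374 ± 55799 (SD, n = 5). In SCE cows at day 25 it ran from 1848 to 37953 CPM with a median of 6733 and a mean of 10378 ± 10692 (SD, n = 11). Healthy cow 6 alone lay above every SCE cow and 6 of 11 SCE cows lay below every healthy cow, so the groups overlapped in part. The log2 fold change of SCE over healthy was -1.92 with SE 0.67, beside a median of -0.05 over the 372 miRNAs tested. Without healthy cow 6 it was -0.47.

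At day 45 miR-10b ran from 7088 to 124846 CPM in healthy cows, with a median of 56730 and a mean of 61593 ± 48376 (SD, n = 6). In SCE cows it ran from 4158 to 51341 CPM, with a median of 17635 and a mean of 20456 ± 16269 (SD, n = 11). All 11 SCE cows lay below the healthy median and 4 of 6 healthy cows lay above every SCE cow, while the remaining 2 healthy cows lay within the SCE range. The log2 fold change was -1.60 with SE 0.56, beside a median of 0.11 over 382 miRNAs tested. Leaving out 1 cow gave -1.85 (without healthy cow 6) to -1.11 (without healthy cow 2) at day 45. With counts summed over each cow's libraries the log2 fold change was -1.70 with SE 0.41, beside a median of 0.04 over 418 miRNAs. Leaving out 1 cow then gave -1.93 (without SCE cow 13) to -1.20 (without healthy cow 3). Healthy cow 3 entered this sum with its day-45 library alone, where miR-10b took 9.38% of counts, the highest share of all libraries.

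miR-10a, the HOXB member, was at 3017, 7110.4, 47569, 4330.4 and 36537 CPM in healthy cows 1, 2, 4, 5 and 6 at day 25, a mean of 19713 ± 20816 (SD, n = 5). In SCE cows at day 25 it ran from 2448 to 14382 CPM with a median of 7677 and a mean of 7518 ± 3708 (SD, n = 11). Healthy cows 4 and 6 lay above every SCE cow and the other 3 lay inside the SCE range, so the lower SCE mean came with only 5 of 11 SCE cows below the healthy median. The log2 fold change was -1.42 with SE 0.53, and without healthy cow 4 it was -0.80.

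At day 45 miR-10a ran from 7788 to 34746 CPM in healthy cows, with a median of 17379 and a mean of 18844 ± 11361 (SD, n = 6). In SCE cows it ran from 3546 to 40883 CPM, with a median of 9756 and a mean of 12189 ± 10507 (SD, n = 11). SCE cow 14 lay above every healthy cow and 4 of 11 SCE cows lay below every healthy cow. The log2 fold change was -0.60 with SE 0.48, and leaving out 1 cow gave -0.24 (without healthy cow 3) to -0.90 (without SCE cow 14). Over both days it was -0.75 with SE 0.38, and from -0.36 to -1.11 without the same 2 cows.

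**Figure D3:**
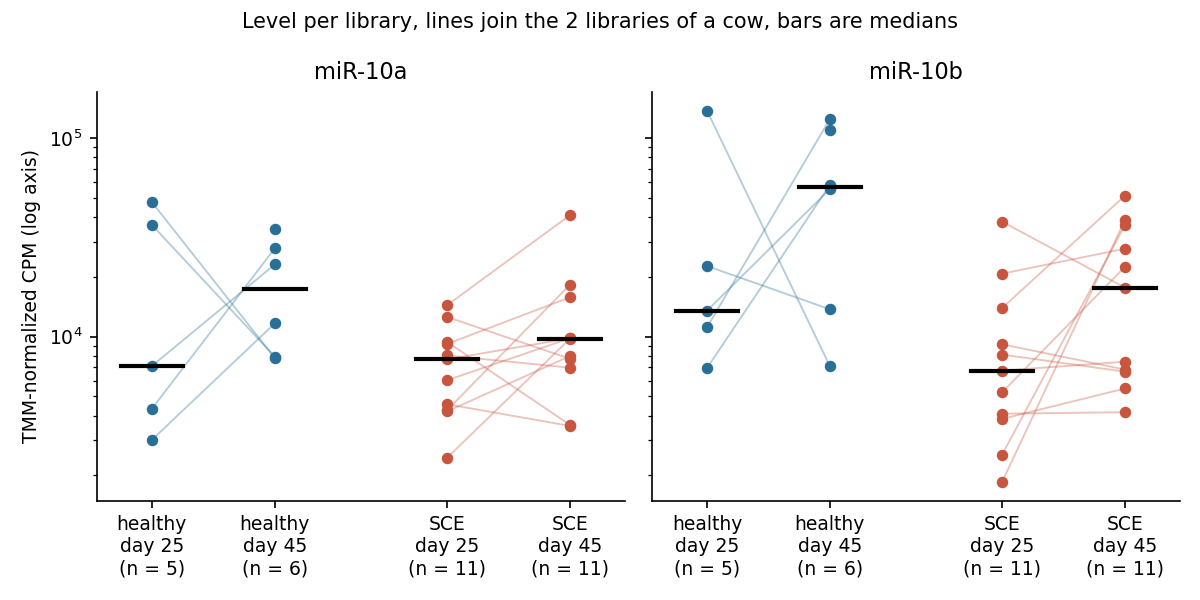
TMM-normalized CPM of miR-10a (left) and miR-10b (right) on a shared log axis in each library by status and day, with lines joining the 2 libraries of a cow and black bars for medians. The SCE median of miR-10b lies below the healthy median at both days, while the medians of miR-10a at day 25 are 7110.4 CPM in healthy and 7677 CPM in SCE cows.

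edgeR called neither member between statuses at an adjusted p of 0.05, and it called few miRNAs at all. It called 1 of 372 at day 25 (0.269%), none of 382 at day 45 (0%) and 1 of 418 over both days (0.239%), with 75, 39 and 69 at an unadjusted p under 0.05. DESeq2 called 14 of 523 at day 25 (2.68%), 1 of 749 at day 45 (0.134%) and 15 of 286 over both days (5.24%), and miR-10b over both days was among the last. The choice of members used these contrasts, so nothing is read from those counts.

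The size of the status differences moved with the scaling. With library totals alone, which count miR-486 in the denominator, miR-10b was at -0.85 at day 25 and -0.79 at day 45, while the median of all miRNAs tested stood at 0.88 and 0.71. miR-10a was then at -0.43 at day 25 and -0.01 at day 45. Relative to the median of the same fit, miR-10b was at -1.73 and -1.501 and miR-10a at -1.31 and -0.72. With totals that leave out miR-486, the values were -1.14 and -1.22 for miR-10b and -0.76 and -0.40 for miR-10a. The fitted values of both members were negative under each of the 5 scalings drawn, with miR-10a at day 45 next to 0 under library totals. For miR-10a the medians under library totals went the other way, at 5150 CPM in healthy and 9846 CPM in SCE cows at day 25 and at 9515 and 11287 CPM at day 45. Only 2 of 11 SCE cows at day 25 and 4 of 11 at day 45 then lay below the healthy median of miR-10a, against 7 of 11 and 9 of 11 for miR-10b.

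**Figure D4:**
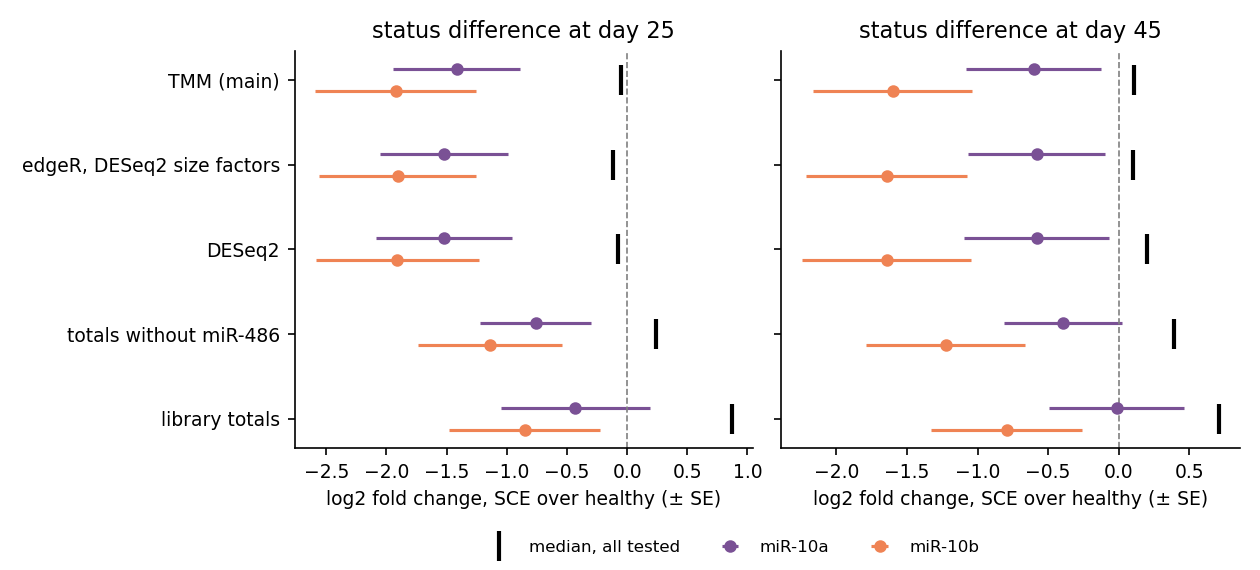
log2 fold change of SCE over healthy cows with its standard error (horizontal axis) for miR-10a and miR-10b under 5 scalings (rows) at day 25 (left) and day 45 (right), with black ticks for the median of all miRNAs tested in the same fit. Under library totals the ticks move to 0.88 and 0.71 and both members move toward 0.

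The 2 red blood cell measures gave different adjusted values for the members. When the model held miR-486 relative to miR-23a, miR-10b was at -1.10 at day 25 and -0.80 at day 45, and miR-10a at -1.80 and -0.23. When it held miR-451, another red blood cell miRNA, relative to miR-23a, miR-10b was at -2.02 and -1.68, and miR-10a at -1.14 and -0.89. miR-23a is the usual partner in such ratios since it is little affected by lysis of red blood cells. The miR-486 ratio itself differed with status, with log2 means at day 25 of 9.97 in healthy and 6.66 in SCE cows. For the miR-451 ratio the means were 2.71 and 1.92. A level of miR-23a that differs with status would also move these ratios, so the adjusted values cannot be assigned to red blood cell RNA alone. The status difference of miR-10b was thus smaller beside the miR-486 measure and about as large beside the miR-451 measure.

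Between day 25 and day 45, a comparison on which the members were not chosen, neither passed the test in either status. The fits of this paragraph held no term for the cow, so the libraries of a cow entered as independent. In SCE cows the log2 fold change of day 45 over day 25 was 0.98 with SE 0.50 for miR-10b (95% interval -0.03 to 1.99) and 0.68 with SE 0.39 for miR-10a (-0.12 to 1.47), each with an edgeR adjusted p of 0.705. In healthy cows it was 0.96 with SE 0.81 for miR-10b (-0.72 to 2.64) and 0.03 with SE 0.69 for miR-10a (-1.42 to 1.49), each with an edgeR adjusted p of 0.9999. edgeR called 0 of 345 miRNAs in healthy cows (0%) and 0 of 346 in SCE cows (0%), with 10 and 14 at an unadjusted p under 0.05, and DESeq2 called 0 in both. The intervals include no change and, for both members, changes of more than 1 log2 unit upward. That of miR-10a in healthy cows also includes a fall of more than 1 log2 unit.

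Paired within cows, the log2 level of miR-10b went up in 8 of 11 SCE cows, by a mean of 1.05 ± 1.79 (SD, n = 11), with a two-sided exact sign-flip permutation p of 0.084 and 0.454 after adjustment over the 6 paired tests. miR-10a went up in 7 of 11 SCE cows, with a mean of 0.52 ± 1.11 (SD, n = 11; exact permutation p = 0.151, adjusted 0.454). In SCE cows 12, 14, 15, 16 and 17, those with a low ratio at day 25, the log2 change of miR-10b was 4.39, 2.10, 0.03, 0.51 and 3.85, so 2 of them hardly moved. In healthy cows 3 of 5 went up for each member, with means of 0.72 ± 3.24 for miR-10b (SD, n = 5; exact permutation p = 0.625, adjusted 0.750) and 0.30 ± 2.51 for miR-10a (SD, n = 5; exact permutation p = 0.875, adjusted 0.875). With 5 cows the smallest p this test can give is 0.0625, so it could not pass 0.05.

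Single healthy cows moved far in opposite directions. The log2 change of miR-10b was 3.07, 3.49, -0.72, 2.04 and -4.28 in cows 1, 2, 4, 5 and 6, and that of miR-10a was 1.95, 1.70, -2.61, 2.69 and -2.21. Both members thus went up together in cows 1, 2 and 5 and down together in cows 4 and 6. In SCE cows the log2 change of miR-10b ran from -1.11 to 4.39 and that of miR-10a from -1.39 to 2.10.

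The ratio of miR-10b to miR-10a did not pass the test between days either. Its log2 change was 0.41 ± 1.72 in healthy cows (SD, n = 5; up in 3 of 5; exact permutation p = 0.625, adjusted 0.750) and 0.53 ± 1.56 in SCE cows (SD, n = 11; up in 7 of 11; exact permutation p = 0.295, adjusted 0.590). SCE cow 12 had the largest rise, at 3.69, from the lowest ratio of all libraries, and without this cow the SCE mean was 0.21. In healthy cows the mean ran from 0.046 without cow 4 to 1.04 without cow 6.

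The day change itself was compared between statuses over the 33 libraries, with no term for the cow in the main fit. The difference of log2 changes, SCE minus healthy, was 0.30 with SE 0.96 for miR-10b (95% interval -1.65 to 2.24) and 0.76 with SE 0.75 for miR-10a (-0.76 to 2.29), each with an edgeR adjusted p of 0.988. For miR-10a it was 0.015 without healthy cow 4, 0.28 without healthy cow 6, 0.38 without SCE cow 14 and 0.15 with the cow as a block. Of 406 tested, edgeR called 0 (0%) and had 7 at an unadjusted p under 0.05, and DESeq2 called 0. These intervals are wide enough to hold differences of more than 1 log2 unit in either direction for miR-10b.

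The miRNAs whose levels followed each member most closely were found by Pearson r of log2 TMM CPM after removing the 4 group means, over 33 libraries of 17 cows and 405 other miRNAs. Libraries share depth, normalization and, in pairs, the cow, so the r values are a description. miR-10a was most like miR-2285k (r = 0.88), miR-191 (0.84), miR-2285cj (0.82), miR-2285bn (0.79) and miR-1271 (0.70). Of these, miR-191 is a widely expressed miRNA with a median of 103576 CPM here, and the 3 miR-2285 names belong to a family found in ruminants, with medians of 326, 4.43 and 6.04 CPM. miR-2285cj had as few as 4 counts and miR-2285bn as few as 6 in a library.

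miR-10b was most like miR-99b (r = 0.90), miR-100 (0.80), miR-11971 (0.78), miR-99a-5p (0.77) and miR-143 (0.76). miR-99a, miR-99b and miR-100 have sequences related to the miR-10 family, and miR-143 is known for its abundance in smooth muscle. Their medians were 555, 368, 16.7, 515 and 6389 CPM in that order. Over the 33 libraries the 5 of one member did not recur among those of the other. With day 45 alone, miR-99b was among the 5 of miR-10a as well (r = 0.72). Each of the 5 named for miR-10b had r between 0.31 and 0.55 with miR-10a, and those named for miR-10a had r between 0.22 and 0.63 with miR-10b.

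miR-10a and miR-10b had r of 0.61 with each other, which placed miR-10b at rank 13 of the 405 for miR-10a and miR-10a at rank 14 for miR-10b. miR-451 had r of -0.66 with miR-10a and -0.08 with miR-10b, and miR-486 had r of -0.08 with miR-10a and 0.42 with miR-10b. The same 5 names led for each member with library totals alone and without SCE cow 10. With day 25 alone, 4 of 5 remained for miR-10a and 2 of 5 for miR-10b, and with day 45 alone, 4 of 5 remained for each. Under library totals the r of miR-486 was -0.48 with miR-10a and 0.11 with miR-10b.

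**Figure D5:**
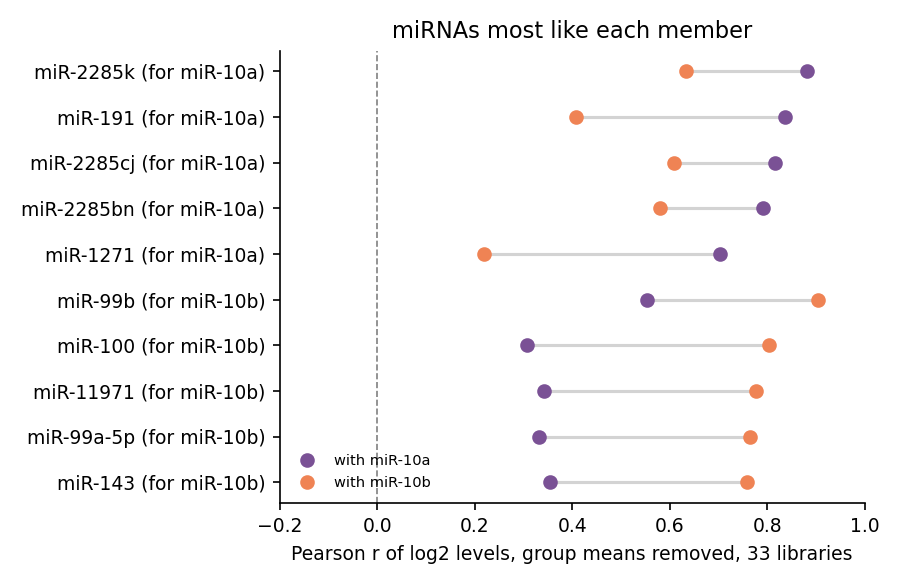
Pearson r of log2 levels with miR-10a and with miR-10b (horizontal axis, group means removed, 33 libraries) for the 5 miRNAs most like each member (rows). The upper 5 rows lie closer to miR-10a and the lower 5 closer to miR-10b, which their selection favours. miR-1271 and miR-100 have low r with the other member, at 0.22 and 0.31.

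The relatives miR-99a, miR-99b, miR-100, miR-125a and miR-125b form clusters of their own outside the HOX genes. All 5 had negative log2 fold changes of SCE over healthy cows in each status comparison, with medians of -0.68 at day 25, -1.14 at day 45 and -0.75 over both days, and edgeR called none. The medians over all miRNAs tested were -0.05, 0.11 and 0.04. From day 25 to day 45, 4 of 5 had positive values in healthy cows (median 0.87) and 4 of 5 in SCE cows (median 0.14), and none was called. miR-99b, the nearest to miR-10b, was at -1.12 at day 25 with SE 0.65 and at -1.27 at day 45 with SE 0.54.

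The other miRNAs of the HOX clusters were scarce beside the members. miR-196b, whose locus is next to HOXA10, had 0 to 127 counts and was above 0 in 31 of 33 libraries, with a median of 32 counts. miR-196a, with a locus within the span of HOXB9 and another nearest to HOXC10, had 0 to 72 counts and was above 0 in 23 of 33 libraries. miR-615, within the span of HOXC5, had 0 to 5 counts and was above 0 in 9 of 33, and its zeros allow levels of up to 0.128 to 4.42 CPM of the library total (3 counts). Abundance in cell-free blood was thus not shared by all miRNAs of these clusters.

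miR-196b was the only one of these 3 tested in all 6 contrasts. Its log2 fold change of SCE over healthy was -0.99 with SE 0.76 at day 25, 0.08 with SE 0.60 at day 45 and -0.08 with SE 0.44 over both days. Between days it was -0.63 with SE 1.08 in healthy cows and 0.30 with SE 0.38 in SCE cows, and edgeR called it in none. miR-196a was tested at day 45, at -1.45 with SE 0.92, and over both days, at -1.32 with SE 0.75. It was also tested for the difference of day changes, at -0.22 with SE 1.55, and was called in none of these.

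Of the 11 other markers listed for endothelium and stroma, 6 had higher and 5 lower values in SCE cows at day 25 (median 0.27). At day 45, and also over both days, 4 were higher and 7 lower (medians -0.18 and -0.22). edgeR called none of the 11 (against 0.269, 0 and 0.239% of all miRNAs at day 25, day 45 and over both days). DESeq2 called miR-195 and miR-497 at day 25 (2.68% of all called) and miR-145 and miR-497 over both days (5.24%), names added after their values were seen. Unlike the members these were higher in SCE cows at day 25, with edgeR log2 fold changes of 2.75 for miR-195, 2.09 for miR-497 and 1.37 for miR-145. DESeq2 did not call miR-145 at that day, and most of the list was lower over both days. None of the 11 was at 0 in every library used. Their summed share ran from 0.339 to 1.82% and from 0.613 to 3.32% of counts in healthy cows at days 25 and 45, and from 0.326 to 3.0004% and from 0.416 to 10.7% in SCE cows. In healthy cows 9 of 11 had positive day changes, with a median of 0.87, beside 0.96 for miR-10b and 0.03 for miR-10a. In SCE cows 6 of 11 had positive day changes, with a median of 0.14, beside 0.98 for miR-10b and 0.68 for miR-10a. The list shares miR-99a, miR-100 and miR-125b with the relatives above, and both day medians are the values of miR-100.

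Of 6 markers listed for lymphocytes, 5 at day 25, 6 at day 45 and 5 over both days had positive log2 fold changes of SCE over healthy cows, opposite to the members, with medians of 0.72, 0.85 and 0.90. edgeR called none of them. DESeq2 called miR-150 at day 45, its single call there (0.134%), and miR-29c over both days (5.24%), names added after their values were seen. Their summed share ran from 0.296 to 1.61% and from 0.316 to 1.72% of counts in healthy cows at days 25 and 45, and from 0.347 to 3.54% and from 0.616 to 2.45% in SCE cows. No lymphocyte marker was at 0 in every library used. The part of either marker list in the levels of the members was not tested. In cell-free blood fewer cells of a type and less RNA released per cell cannot be told apart.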

How the data were processed

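Small RNA libraries of cell-free blood RNA were made with the TruSeq Small RNA kit, per the labels' protocols. The authors deposited unnormalized counts for 800 bovine miRNA names in a file for each library, and 6 names had no count anywhere. bcl2fastq 2.17.1.14, UMD 3.1 and DESeq2 are named per the submitters' processing notes. The aligner, the counter and how it placed ambiguous reads were not given in the sources used, so reads of miR-10a and miR-10b, which are closely related, could have been shared between them.

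Files were joined by name. Both files of healthy cow 3 held identical counts, and the one labelled day 25 was left out, so 5 and not the planned 6 healthy cows entered at that day. Tests used the edgeR 4.0.16 quasi-likelihood F test in R 4.3.3, with TMM, the default low-count filter and Benjamini-Hochberg adjustment over all miRNAs tested, two-sided, at 0.05. Standard errors are the absolute log2 fold change divided by the square root of F. The 6 contrasts were status at each day, status on counts summed per cow, day in healthy and in SCE cows, and the difference of day changes. Day changes within cows were also tested by exact sign-flip permutation on log2 CPM (prior count 2) and on the log2 ratio of counts (0.5 added). The main edgeR fit was tried on simulated counts for status at day 25 and for day in SCE cows. The other contrasts and steps were not tried in this way. Alternatives were DESeq2 1.42.0, other scalings, no filter, red blood cell covariates, the cow as a block and leaving out each cow.

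The animal number pairs the libraries, since each cow gave blood at either day. Across miRNAs, deviations from group means had a median r of 0.25 within a cow and -0.032 between cows, with r over 0.1 in 11 of 16 cows.

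The members and lists were chosen with earlier results of these data known. The rule for named miRNAs took the 2 members, the other HOX-cluster miRNAs, the miR-99, miR-100 and miR-125 relatives, the 5 miRNAs most like each member, and miR-486, miR-451 and miR-23a. The platelet and liver marker lists had no member called by edgeR (DESeq2 called miR-151-3p at day 25 and miR-28 over both days, of the platelet list), with status medians of -0.33 and -0.69 at day 25 and 0.13 and -0.13 at day 45. Mature sequences were not used here.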

Additional observations from a re-analysis of the deposited data

How the results depend on the processing

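Of 432 alternative values, 372 were counted as kept, 42 moved and 18 changed sign. A status difference counted as kept if it moved by less than 1 SD between cows. By this rule miR-10b at day 25, going from -1.92 to -0.85 with library totals, counted as kept. Day changes counted as kept if direction and call did not change, and numbers of calls if they stayed equal. In healthy cows the paired tests could not pass 0.05, so their call could not change. In status comparisons the fitted values of both members stayed negative in every alternative run. Leaving out 1 cow gave -2.36 to -0.47 for miR-10b at day 25, the latter without healthy cow 6. The number of miRNAs called at day 25 was 14 with DESeq2, 4 with DESeq2 size factors, 48 with library totals, 8 with totals without miR-486, 6 without filter, 2 with the miR-451 covariate, and 0 to 7 without 1 cow. At day 45 it was 1 with DESeq2, library totals or the miR-451 covariate. Over both days it was 15, 64 with library totals, 22 with totals without miR-486, 2 without filter, 0 with either covariate, and 0 to 10 without 1 cow. It was 1 for the difference of day changes without filter.

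The day change of miR-10a in healthy cows was -0.20 with DESeq2, -0.19 with DESeq2 size factors, -0.067 with library totals and -0.54 with the copied file taken as day 25, an alternative chosen after seeing the data. It ran from -0.42 to 0.95 without 1 cow (negative without healthy cow 1, 2, 3 or 5), and its paired mean from -0.29 to 1.03 (negative without healthy cow 1, 2 or 5). For miR-10b in healthy cows the day change was 0.14 with the copied file taken as day 25. It ran from 0.31 without cow 2 to 2.39 without cow 6, and its paired mean from 0.025 to 1.97 without the same cows. Taking the copied file as day 25 put the status difference of miR-10b at -2.31 at day 25 and -1.27 at day 45. For miR-10a these were -1.59 and -0.24. The difference of day changes of miR-10b was -0.084 with totals without miR-486, and -1.44 to 0.59 without 1 cow (negative without healthy cow 6 or SCE cow 10, 12, 14 or 17). With the cow as replicate block it was -0.12, and the block changed no call, at 0.45 and 0.90 for miR-10a and miR-10b in SCE cows and 0.38 and 1.06 in healthy cows. The cause of these shifts was not tested. Only 5 healthy cows entered at day 25, and single healthy cows changed by -4.28 to 3.49 log2 units in miR-10b between days. The widest interval for counting error of a member's share extended 0.0557 percentage points to either side. Which of spread between cows, change within a cow and depth limits these comparisons was not tested.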
